A study of Mus musculus with 4 samples.

Results

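Ribosome-protected fragments of 8 genes of cholesterol synthesis are described here: Hmgcs1, Idi1, Fdps, Fdft1, Sqle, Lss, Cyp51 and Dhcr7. They were picked by name from the 22396 named genes of a table from low-input ribosome profiling of mouse testis cells, and all 8 have a row in it and were tested. The cells carried the surface marker THY1; 2 samples came from Ddx20 knockout mice and 2 from controls of the same litters. How Ddx20 was deleted and the age and strain of the mice are not stated, and nothing states that samples of a genotype came from separate animals, so p-values measure the spread between these samples. DDX20, also called Gemin3, is an RNA helicase found with the SMN protein in the complex that assembles spliceosomal particles.

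Cholesterol is built from acetyl-CoA in 2 arms. In the mevalonate arm HMGCS1 makes the precursor of mevalonate, and IDI1 and FDPS form and join the isoprene units into farnesyl diphosphate. In the sterol arm FDFT1 makes squalene, SQLE oxidises it, LSS closes the rings to lanosterol, CYP51 takes off a methyl group, and DHCR7 acts at the end of the route to cholesterol. The genes of both arms are classic targets of the transcription factor SREBP2, which is held back when sterols are plentiful. In the testis cholesterol serves membranes of dividing cells and steroid hormones, and the lanosterol derivatives downstream of CYP51 include the meiosis-activating sterols.

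Promoter windows of 250 bases before to 50 after a start site were available from RefSeq (GRCm38.p6) for 5 of the 8 members, in 7 windows. Fdps, Fdft1 and Sqle had no entry. The 3 windows below belong to the member with the deepest fall in fragments (Hmgcs1), the member with the smallest fall that passed the test (Lss) and a member that did not pass (Idi1), all on the plus strand. Capitals mark the letters of the sterol response element, TCACNCCAC, and of the CCAAT box, on either strand (a CCAAT box on the other strand reads ATTGG).
Hmgcs1 (chr13:119690101-119690400): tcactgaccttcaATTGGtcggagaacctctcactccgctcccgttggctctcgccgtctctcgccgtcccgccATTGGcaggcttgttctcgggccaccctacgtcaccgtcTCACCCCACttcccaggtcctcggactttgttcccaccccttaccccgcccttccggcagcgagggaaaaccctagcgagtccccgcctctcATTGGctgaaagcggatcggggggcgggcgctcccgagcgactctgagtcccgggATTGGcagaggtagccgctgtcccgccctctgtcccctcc
Lss (chr10:76531355-76531654): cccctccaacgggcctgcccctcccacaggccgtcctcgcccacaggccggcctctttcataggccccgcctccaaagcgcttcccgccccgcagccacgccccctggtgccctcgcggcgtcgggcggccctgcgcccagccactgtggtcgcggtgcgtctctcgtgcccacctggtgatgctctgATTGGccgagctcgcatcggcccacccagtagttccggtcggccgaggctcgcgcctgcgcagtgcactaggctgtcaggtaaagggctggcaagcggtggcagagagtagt
Idi1 (chr13:8885356-8885655): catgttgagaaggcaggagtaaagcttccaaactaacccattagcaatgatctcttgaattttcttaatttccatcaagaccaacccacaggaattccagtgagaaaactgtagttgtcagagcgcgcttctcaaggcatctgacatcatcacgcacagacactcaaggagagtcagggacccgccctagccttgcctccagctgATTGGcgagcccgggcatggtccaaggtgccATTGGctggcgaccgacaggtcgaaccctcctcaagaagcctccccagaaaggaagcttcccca
The sterol response element letters occurred in 1 of the 7 windows, that of Hmgcs1, at position -137 from the start site, against 1.24% of all 32851 windows. CCAAT letters occurred in 5 of the 7 windows (71.4%), against 37.4% of all windows, with 4 matches in Hmgcs1, 2 in Idi1 and 1 in Lss. The GC box letters GGGCGG, searched on both strands and left in lower case above, occurred in 6 of the 7 windows (85.7%), against 35.7% of all. There were 0 overlaps among these matches. Of 13 windows of the other pathway enzymes 0 held the sterol response element letters, and 76.9% held those of the CCAAT box and 76.9% those of the GC box. These are matches of letters, not measured binding sites.

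The deposited table holds 1 comparison per gene and no column per sample. Whole reads of 4 libraries were recovered from the deposited means: 941014 in library A, 789570 in B, 282722 in C and 221439 in D. Fold changes are positive where libraries C and D are higher, and the table does not say which pair is the knockout. No library is therefore given a genotype: "fell" means lower in C and D than in A and B with a Benjamini-Hochberg adjusted p under 0.05 in the deposited comparison, "rose" the reverse, and all directions turn together if the pairs are read the other way. Ddx20 fell, with normalized reads (reads divided by the library's size factor) of 167 and 173 in A and B and 42.6 and 50.8 in C and D, and a log2 fold change of -1.83 by the authors' deposited table (adjusted p = 4.07e-13 by Benjamini-Hochberg). Thy1 had 18, 15, 1 and 3 reads in libraries A to D and did not pass by the authors' deposited table (adjusted p = 0.156 by Benjamini-Hochberg), though it was lower with limma on the recovered reads (adjusted p = 0.00829). The reads of A and B differed by no more than sampling noise (10424 genes, chi-square test, 0.982 per degree of freedom, p = 0.905), while those of C and D differed by more (1.08, p = 3.79e-10), so an alternative took A and B together as 1 sample. Olfactory and vomeronasal receptor genes, which testis cells have little use for, took 0.806% and 0.899% of the reads of C and D against 0.00457% and 0.00469% of A and B. Recovered reads on genes of the mitochondrial genome, without mt-Cytb, which had no single solution, were 1.35% and 1.28% of C and D against 0.136% and 0.133% of A and B. Of 11 tested pan germ cell markers 10 fell, against 18.8% of all tested genes. Those 10 lie in the highest quartile of tested genes by mean over all 4 libraries, where 61.2% fell. The summed level of the markers was 5371 and 5620 CPM (reads scaled to the library total) in A and B against 1273 and 1215 in C and D. Fewer germ cells and less RNA per cell cannot be told apart in such bulk samples, and the part of the receptor reads in these values was not tested.

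Fragments on most of the cholesterol synthesis genes were lower in libraries C and D. Of the 8 members 6 fell and none rose by the authors' deposited table, against 18.8% of the 17347 tested genes that fell and 26.9% that rose. The 6 were Hmgcs1, Fdft1, Sqle, Lss, Cyp51 and Dhcr7; Idi1 and Fdps did not pass. The median log2 fold change of the 8 members in the authors' deposited table was -1.87, against 0.38 over all tested genes. All 8 together took 0.138% of the reads of library A (95% Wilson interval 0.131 to 0.146) and 0.135% of B (0.127 to 0.143), but 0.0449% of C (0.0378 to 0.0534) and 0.0402% of D (0.0327 to 0.0495). These intervals, and those on read ratios below, cover counting error only.

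**Figure D1:**
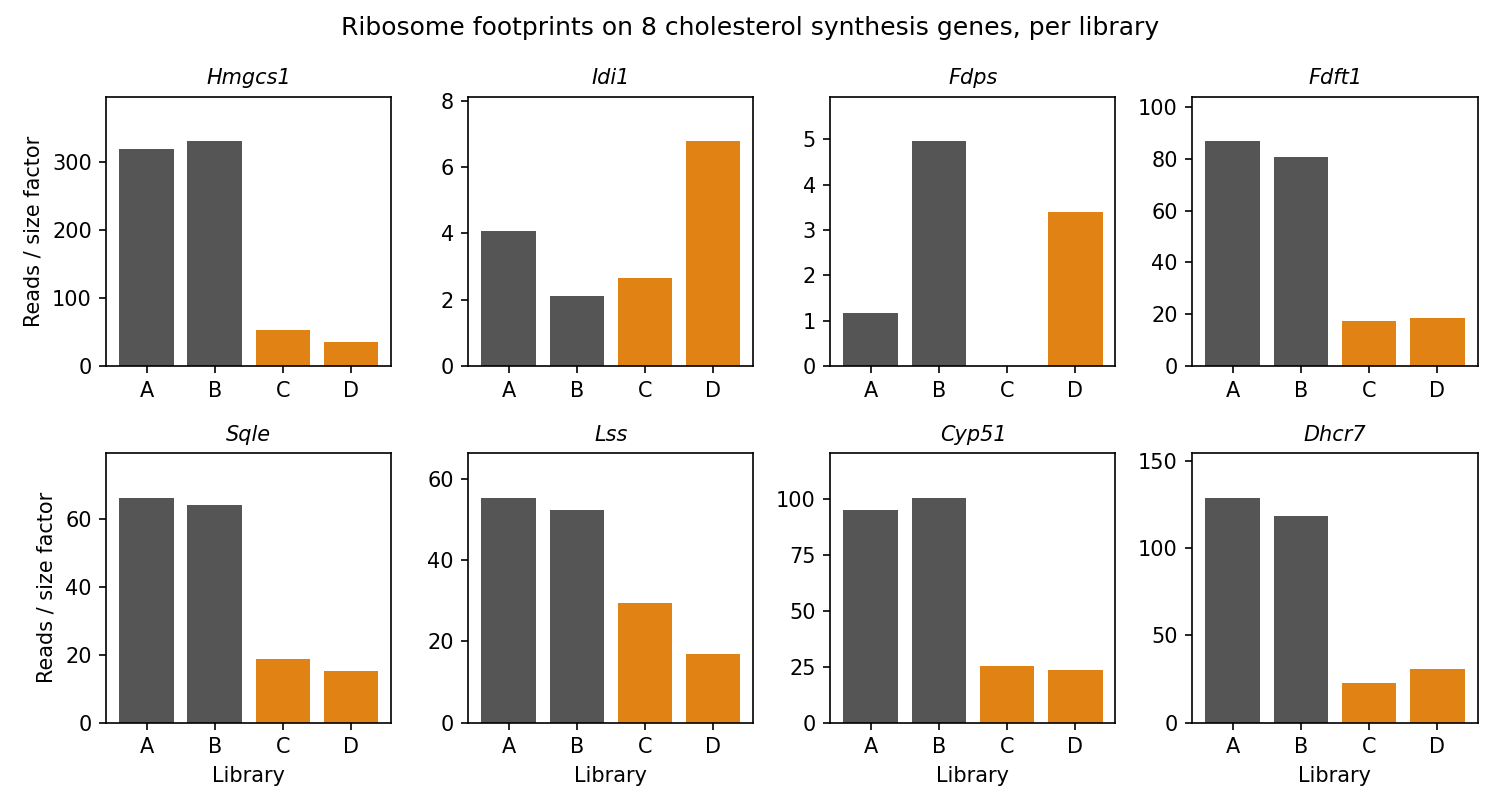
Reads divided by the size factor (vertical axes, each starting at 0 with its own scale) for the 8 members in libraries A and B (grey) and C and D (orange); each bar is 1 library. In 6 panels both grey bars stand above both orange bars, while Idi1 and Fdps, at under 7 normalized reads in every library, show no such order.

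Hmgcs1, which encodes the cytosolic HMG-CoA synthase at the entry to the mevalonate arm (chromosome 13, 119690351 to 119708260, GRCm38.p6), carried the most reads of the 8 members. It had 547 reads in library A, 466 in B, 40 in C and 21 in D, or 318, 330, 53.3 and 35.5 normalized reads. Libraries A and B lay close together and far above C and D, and D was the lowest. The log2 fold change was -2.81 by the authors' deposited table (standard error 0.227, Benjamini-Hochberg adjusted p = 1.77e-33). By recovered reads the pair A and B was 7.11-fold above C and D (exact 95% interval 5.49 to 9.36). Hmgcs1 held 42.1% and 43.8% of the members' reads in A and B and 31.5% and 23.6% in C and D. The members' summed reads therefore rest in large part on this gene, and without it they were 751 and 598 reads in A and B and 87 and 68 in C and D.

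Idi1, encoding the isomerase that supplies dimethylallyl diphosphate (chromosome 13, 8885606 to 8892396), had 7, 3, 2 and 4 reads in libraries A to D. Normalized, these were 4.07, 2.12, 2.67 and 6.77, so the pairs overlapped, and the highest and lowest values were in D and B. The log2 fold change was 0.21 (standard error 0.836 and Benjamini-Hochberg adjusted p 0.742) by the authors' deposited table. Its ratio of C and D over A and B was 1.40 by recovered reads, with an exact interval of 0.419 to 4.26. That interval lies above the one of Hmgcs1, 0.107 to 0.182. Fdps, encoding farnesyl diphosphate synthase (chromosome 3, 89093588 to 89101967), had 2, 7, 0 and 2 reads in A to D. Its normalized values of 1.16, 4.95, 0 and 3.38 overlapped as well. In the authors' deposited table its log2 fold change was -0.16 (standard error 0.940, Benjamini-Hochberg adjusted p = 0.743). With 11 reads in all, the ratio of C and D over A and B was 0.519 with an exact interval of 0.0546 to 2.51, which includes the ratios of all 6 members that fell.

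A fall of Idi1 or Fdps was hardly detectable at this depth. Both lie in the lowest quartile of tested genes by mean (4.22 normalized reads or fewer), in which 0 of 4337 genes (0%) fell and 22.5% rose by the authors' deposited table. Receptor genes of the nose, taken as a scale for reads on genes not in use, averaged 1.47 reads per gene in library C and 1.29 in D, with a 95th percentile of 4 in each. The counts of Idi1 (2 and 4) and Fdps (0 and 2) in C and D did not exceed that percentile, whereas each of the other 6 members had 9 or more reads in both libraries; the part of such reads in the result was not tested. In the authors' deposited table the fold changes of the 983 genes with a single read ran from -0.08 to 0.12. Processed pseudogenes of FDPS are known in the human genome, and how reads shared by near-identical copies were counted here is not given.

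The sterol arm members fell together. Fdft1, encoding squalene synthase, which commits farnesyl diphosphate to sterols (chromosome 14, 63145150 to 63181687), had 149 and 114 reads in A and B and 13 and 11 in C and D. Normalized, it was at 86.7, 80.6, 17.3 and 18.6, with no overlap. Its log2 fold change was -2.13 by the authors' deposited table (standard error 0.375, Benjamini-Hochberg adjusted p = 4.72e-08). The annotated span of Fdft1 shares its end with that of Ctsb, a lysosomal protease gene, and whether reads were counted by strand is not given. Ctsb itself was at 142, 144, 120 and 108 normalized reads and did not pass (Benjamini-Hochberg adjusted p = 0.155 by the authors' deposited table).

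Sqle, encoding squalene epoxidase, a rate-limiting enzyme of the arm (chromosome 15, 59315092 to 59331193), had 114, 91, 14 and 9 reads in A to D. The normalized values were 66.3, 64.3, 18.7 and 15.2, again high in A and B only. In the authors' deposited table the log2 fold change was -1.83 (standard error 0.398, Benjamini-Hochberg adjusted p = 1.21e-05).

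Lss, encoding lanosterol synthase (chromosome 10, 76531565 to 76557139), showed the smallest change of the 6. It had 95, 74, 22 and 10 reads in A to D, or 55.3, 52.3, 29.3 and 16.9 normalized reads. The pairs did not overlap, but library C lay closer to A and B than for any of the other 5 members that fell. Its log2 fold change was -1.09 by the authors' deposited table (standard error 0.374, Benjamini-Hochberg adjusted p = 0.00648). Scaling by library totals ended the call, with a log2 fold change of -0.63 and a limma adjusted p of 0.0513. Without library D limma gave -0.86 and without library C -1.61.

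Cyp51, encoding lanosterol 14-alpha-demethylase (chromosome 5, 4080674 to 4104697), had 163, 142, 19 and 14 reads in A to D. Normalized, these came to 94.8, 100.4, 25.3 and 23.7, with the libraries of each pair close together. The log2 fold change was -1.92 (standard error 0.328 and Benjamini-Hochberg adjusted p 2.20e-08) by the authors' deposited table. Dhcr7, encoding 7-dehydrocholesterol reductase (chromosome 7, 143823167 to 143848410), had 221, 167, 17 and 18 reads. Its normalized reads were 129, 118, 22.7 and 30.5, and the pairs did not overlap. In the authors' deposited table its log2 fold change was -2.18 (standard error 0.310, Benjamini-Hochberg adjusted p = 1.31e-11).

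The 6 members that fell differed among themselves in the size of the change, ordered as Hmgcs1, Dhcr7, Fdft1, Cyp51, Sqle and Lss from the deepest. In the authors' deposited table Hmgcs1 lay 0.63 log2 units below Dhcr7, more than their combined standard error of 0.384. Dhcr7, Fdft1, Cyp51 and Sqle followed at steps of 0.04, 0.22 and 0.09 log2 units in the authors' deposited table, each under the combined standard error of the neighbours, so their order is not resolved. Sqle and Lss in the authors' deposited table were 0.73 apart, with a combined standard error of 0.546. Between the extremes, Hmgcs1 and Lss, the authors' deposited table gives a difference of 1.72 log2 units (combined standard error 0.437). These differences were compared with standard errors only, and no test of them was run.

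With 14 further enzymes the 8 members cover the route from acetyl-CoA to cholesterol. Of the 13 of these that were tested, 6 fell and 1 rose by the authors' deposited table, and their median log2 fold change was -1.10. Of all tested genes 18.8% fell and 26.9% rose. In the sterol arm Msmo1, the C4-methyl oxidase, had a log2 fold change of -2.44, Nsdhl, which acts with it, -2.21, and the desaturase gene Sc5d -1.81 in the authors' deposited table, and all 3 fell.

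The reduction after CYP51 can be carried out by the products of Lbr, which is also a receptor of the nuclear lamina, or of Tm7sf2. The pair went opposite ways. Lbr was at 316, 327, 58.6 and 60.9 normalized reads in A to D and fell (-2.40 in the authors' deposited table, with a Benjamini-Hochberg adjusted p of 6.40e-30). Tm7sf2 had 0, 2, 5 and 6 reads in A to D and rose (2.27 in the authors' deposited table, standard error 1.68, Benjamini-Hochberg adjusted p = 0.0382). Its ratio of C and D over A and B was 12.8, with an exact interval of 2.80 to 119, and its 5 and 6 reads in C and D are within the highest counts of receptor genes there (10 and 9). The part of such reads in this result was not tested.

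Further mevalonate arm genes did not pass in the authors' comparison. Besides Idi1 and Fdps these were, by the authors' deposited table, Acat2 (-0.83), Mvk (0.25), Pmvk (-0.03) and Mvd (-0.79); the first makes acetoacetyl-CoA, and the last 3 encode the steps from mevalonate to isopentenyl diphosphate. Acat2 passed as lower with TMM factors (limma adjusted p = 0.0361) and without library A (limma adjusted p = 0.0294), and Mvk as higher without library C (0.96, limma adjusted p = 0.0346). Mvk was at 14.0, 14.1, 9.33 and 27.1 normalized reads, with C and D on either side of A and B. Hsd17b7 (-1.10) and the isomerase gene Ebp (0.48) of the sterol arm did not pass either in the authors' deposited table. Idi2 had 1 read in all and no adjusted p. With limma on the recovered reads, where 28.8% of 14470 genes fell and 40.9% rose, Mvd (-0.89, adjusted p = 0.0181) and Hsd17b7 (-1.32, adjusted p = 0.0121) passed as lower and Ebp as higher (1.56, adjusted p = 0.0387). None of these 3 calls held in every alternative. Without library B, C or D the limma call of Ebp was lost (adjusted p = 0.597, 0.417 and 0.0880). That of Hsd17b7 was lost without C or D (limma adjusted p = 0.130 and 0.154), that of Mvd without A, C or D (limma adjusted p = 0.0810, 0.175 and 0.0570), and both with library totals (limma adjusted p = 0.147 and 0.381).

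**Figure D2:**
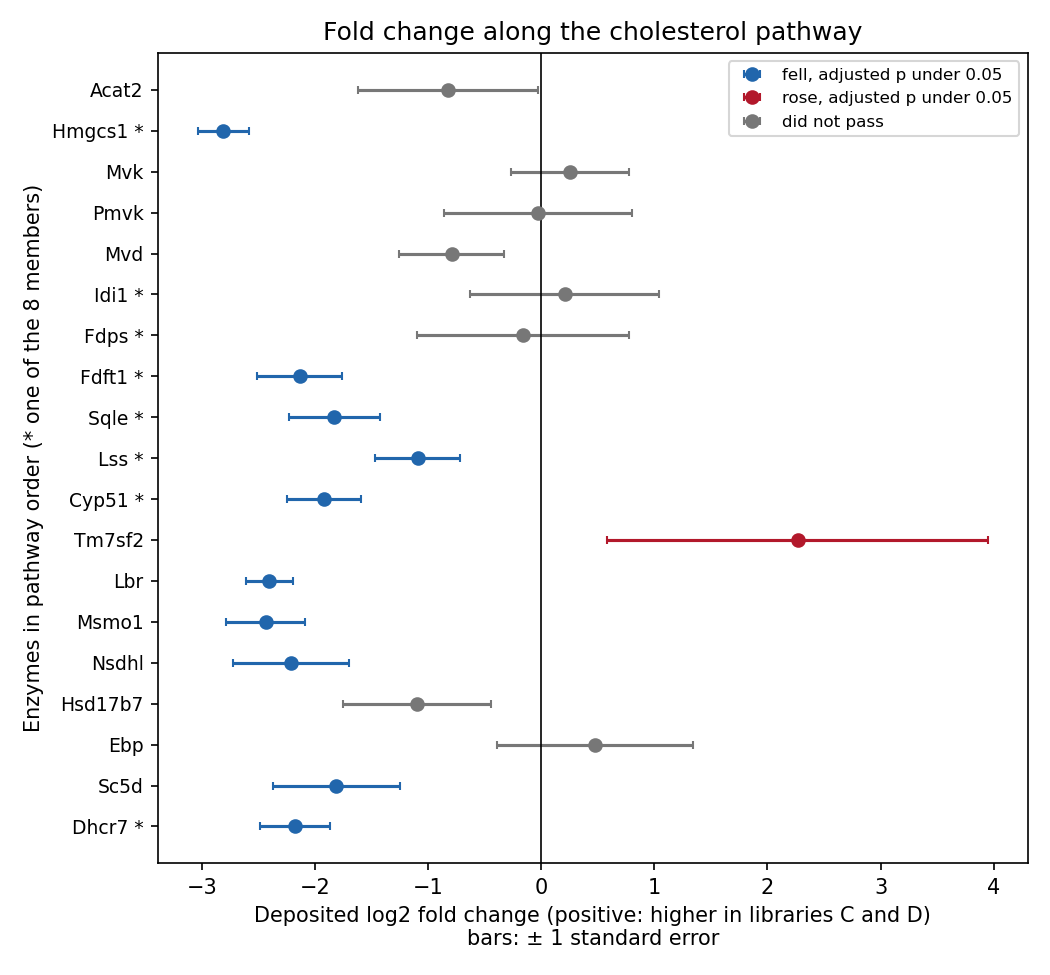
Deposited log2 fold change (horizontal axis, bars ± 1 standard error) of 19 of the 21 tested enzymes in pathway order from top to bottom, with the 8 members starred; blue points fell, red rose and grey did not pass. Hmgcs1 stands lowest at the top, and the genes from Mvk to Fdps, between -0.79 and 0.25, did not pass.

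The deposited mean of the enzyme genes, taken over all 4 libraries, went with the call. In the highest quartile of tested genes by mean (27.2 normalized reads or more), 61.2% of the 4337 genes fell, with a median log2 fold change of -1.05 in the authors' deposited table. Of the 21 tested enzymes 11 lie in that quartile, all 11 fell, and their median in the authors' deposited table was -2.18. They include the 6 members that fell (median -2.03). Of the 10 enzymes in the lower quartiles, 1 fell and 1 rose, and their median was -0.09 by the authors' deposited table. In the 2 quartiles between 0.623% and 13.3% of all genes fell and 44.6% and 28.7% rose, and in the highest 11.7% rose. Genes high in A and B enter the highest quartile partly through the same values that set their call. Fdft1, Sqle and Cyp51, for example, were under 27.2 normalized reads in both C and D. The 6 members of this quartile are to be read beside its 61.2%, which is not an independent background. The members were chosen with results of these data known, so no test of the list against the quartile was made.

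**Figure D3:**
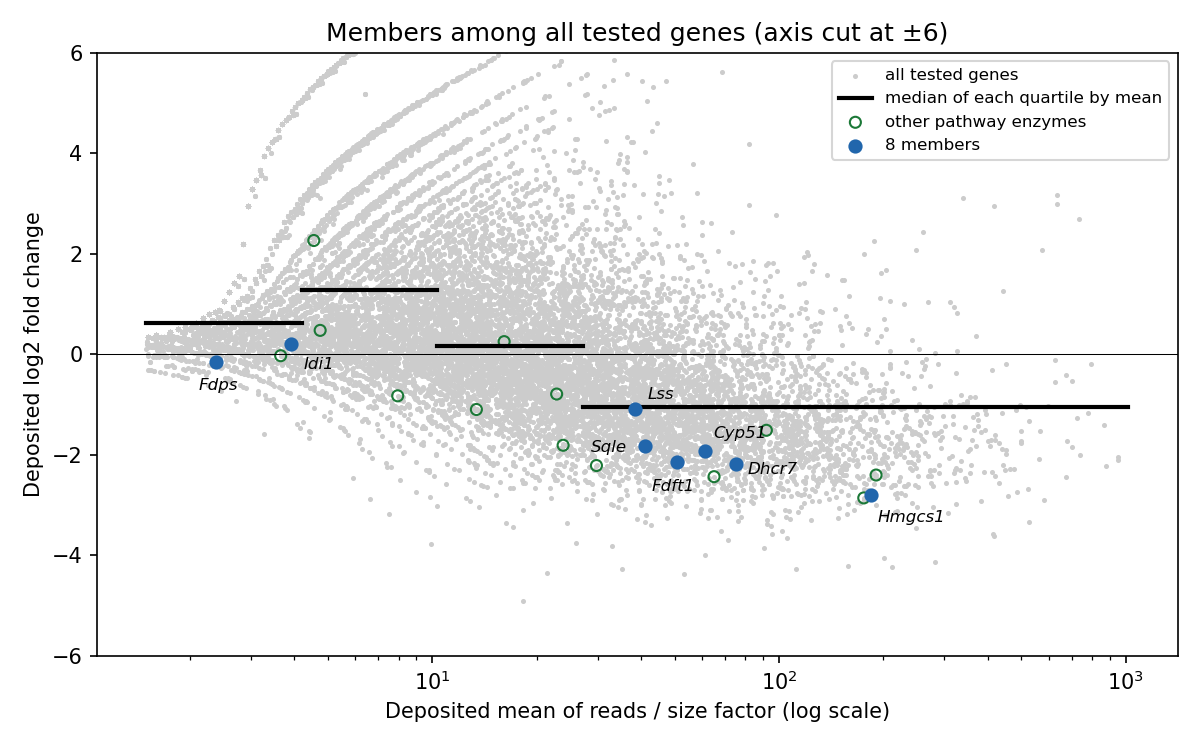
Deposited log2 fold change (vertical axis, cut at ±6) against the deposited mean (horizontal axis, log scale) for all tested genes (grey), the other pathway enzymes (green rings) and the 8 members (blue, named); black lines are the medians of the 4 quartiles by mean. Of the 6 members that fell, 5 lie at -1.83 or lower, below the line of the highest quartile at -1.05, Lss lies close to it at -1.09, and Idi1 and Fdps lie in the lowest quartile.

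The balance of calls over all genes depended on the scaling. Rises made up 58.9% of the calls by the authors' deposited table, and limma gave 58.7% with the same size factors but 72.6% with library totals, which shifted the median of all genes up by 0.55 log2 units. Under library totals 18.9% of 14470 genes fell, and 5 of the 8 members did: Hmgcs1 (-2.28), Dhcr7 (-1.67), Fdft1 (-1.62), Cyp51 (-1.39) and Sqle (-1.33), all with a limma adjusted p of at most 0.000288, while 50.2% of genes and 0 members rose. With TMM factors limma called 31.4% of genes lower and 38.2% higher, and 6 members lower. For all 6 members that fell both libraries A and B exceeded both C and D in normalized reads, as they did for 30.8% of all tested genes with recovered reads, against 53.9% with both below.

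The genes of the transcription factors that control the pathway did not pass. Srebf2, encoding SREBP2, was at 177, 170, 165 and 140 normalized reads in libraries A to D and did not pass (-0.17 by the authors' deposited table, standard error 0.171, Benjamini-Hochberg adjusted p = 0.400). Srebf1 did not pass either (-0.23 in the authors' deposited table). Scap, which escorts SREBP to its proteases, rose by 0.63 (Benjamini-Hochberg adjusted p = 0.0313) by the authors' deposited table. Insig1, the sterol-sensing retention protein and itself an SREBP target, was at 33.7, 48.8, 24.0 and 6.77 normalized reads and did not pass (-1.0, Benjamini-Hochberg adjusted p = 0.124 by the authors' deposited table), though limma on the recovered reads called it lower (-1.46, adjusted p = 0.000636). Of the 15 tested regulators of SREBP and of sterol-driven degradation, 4 fell and 2 rose by the authors' deposited table, with a median of -0.17. Of all tested genes 18.8% fell and 26.9% rose there. Over the limma alternatives 4 to 6 fell and 1 to 5 rose. The 4 were Ubxn4 (-1.82), Erlin1 (-1.56), Erlin2 (-1.40) and Ube2g2 (-1.49) in the authors' deposited table, all of the degradation machinery of the endoplasmic reticulum. Ube2g2 did not pass without library C (limma adjusted p = 0.103). The other gene that rose, Sec24d, a coat subunit of vesicles leaving the endoplasmic reticulum (1.04 in the authors' deposited table), did not pass without library A (limma adjusted p = 0.0669).

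Lists of neighbouring routes had medians closer to 0, and the difference from the members was not tested. The lists also differ in read level, which went with the call. In the highest quartile by mean lie 6 of the 8 members and most fatty acid synthesis genes, but only Dhdds and Rabggta of the isoprenoid branch. Of 12 genes of the isoprenoid branch, which leads to products other than sterols, 1 fell and 0 rose by the authors' deposited table (median -0.43): Dhdds, for dolichol synthesis (-2.05). With limma on the recovered reads 5 of the 12 fell, and 2 to 5 over the alternatives. Of 22 genes of sterol uptake, transport and storage, 5 fell and 4 rose by the authors' deposited table (median -0.27). Limma called 7 lower and 7 higher, and with library totals 3 lower and 9 higher, so the balance of this list depended on the scaling. The efflux pump gene Abca1 (-0.98) and Npc1, for cholesterol export from lysosomes (-0.95), both fell by the authors' deposited table, while Lrp8, a lipoprotein receptor gene (2.83), and Soat2 rose. Soat2, for sterol esterification, had 0 reads in A and B and 7 in each of C and D. The exact 95% lower limit of its ratio of C and D over A and B was 7.75. Its 7 reads are within the highest counts of receptor genes in C and D (10 and 9). The part of such reads in the rise of Soat2 was not tested. With library totals Npc1 did not pass (limma adjusted p = 0.0752). Of 14 genes of fatty acid synthesis, 6 fell and 2 rose by the authors' deposited table (median -0.31; 1 to 4 rose over the limma alternatives), with Elovl5 (-2.65), Acly, which makes the acetyl-CoA for both routes (-1.5), and Scd2 (-1.82) among those that fell and Acacb (2.80) and Mlxipl (2.66) those that rose. Fasn, the fatty acid synthase gene, was level at 326, 310, 337 and 333 normalized reads and did not pass (0.07 by the authors' deposited table).

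**Figure D4:**
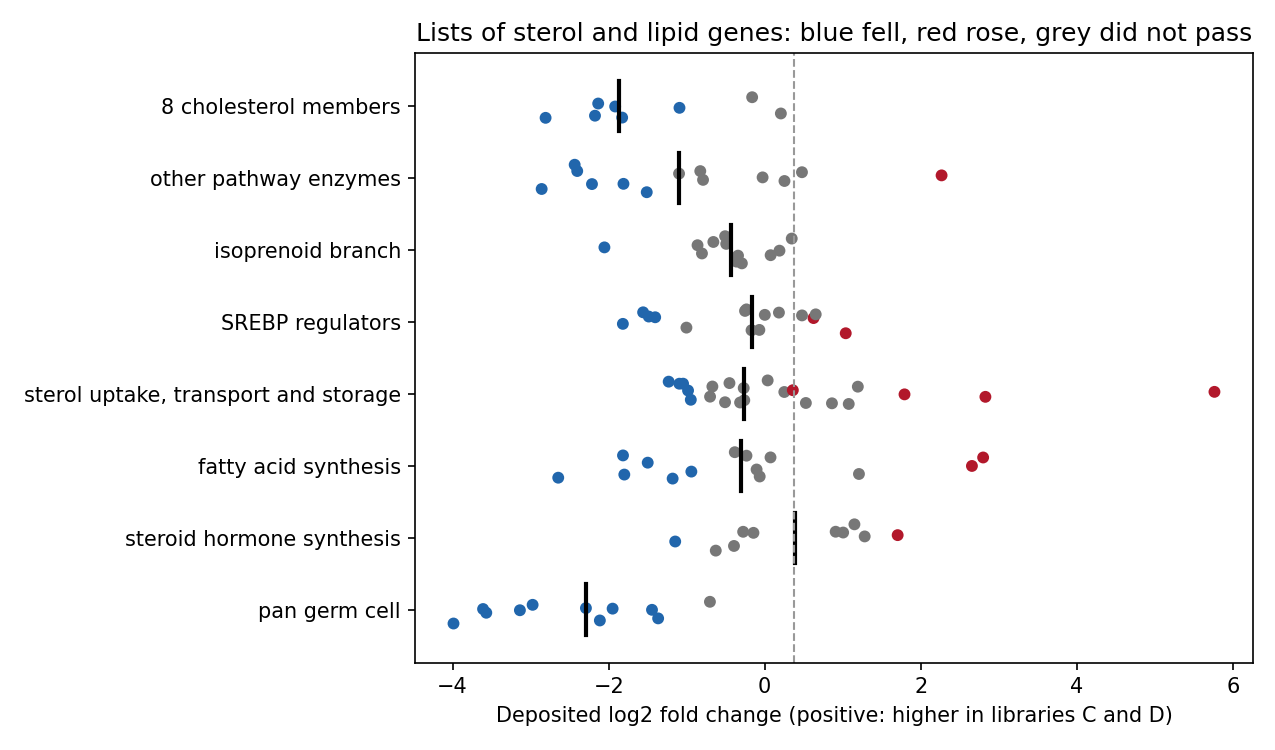
Deposited log2 fold change (horizontal axis) of each tested gene in 8 lists (rows), 1 point per gene with random vertical spread; blue fell, red rose, grey did not pass, black bars are list medians and the dashed line is the median of all tested genes at 0.38. The medians of the 8 cholesterol members (-1.87) and the pan germ cell markers (-2.29) lie lowest, and those of SREBP regulators (-0.17) and steroid hormone synthesis (0.38) highest. The lists differ in read level.

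Markers of cell types were read beside these values. Over all tested genes 18.8% fell and 26.9% rose by the authors' deposited table. In the highest quartile by mean, where all spermatogonia markers but Lin28a lie, 61.2% fell and 11.7% rose. Of 10 spermatogonia markers 9 fell and 0 rose by the authors' deposited table (median -1.54), and their summed level was 2362 and 2285 CPM in A and B and 1539 and 1319 in C and D. The tested pan germ cell markers ran from -3.99 to -0.70 in the authors' deposited table. Among these, Dazl (-3.61), Stk31 (-3.14) and Ddx4 (-2.97) fell further than any of the 8 members. Tdrd1 (-2.29) and Piwil2 (-2.11) changed less than Hmgcs1 (-2.81), as did every spermatogonia marker (lowest -2.13) in the authors' deposited table. Endothelial, peritubular and macrophage markers had higher summed levels in C and D, and Sertoli cell markers did not. For 6 endothelial markers, of which 3 rose, the sums were 137 and 122 CPM in A and B and 432 and 456 in C and D, and for 5 peritubular markers, of which 3 rose, 79.7 and 59.5 against 329 and 348. For 7 macrophage markers, of which 3 rose and 1 fell, they were 171 and 176 against 407 and 447. For 10 Sertoli cell markers, of which 2 fell and 1 rose, they were 420 and 385 against 318 and 375. No marker of these lists lacked reads in both C and D. The part of these shifts, and of the reads on receptor and mitochondrial genes, in the lower fragments of the cholesterol genes was not tested.

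Among the 5519 other genes with a mean of 20 or more, predicted genes left out, Mars1, Rps15, Eif2b5, Eif4e2 and Tmem131l had the profile closest to the mean profile of the 8 members over the 4 libraries. The likeness was the Euclidean distance between centred log2 profiles, 0.0265 for Mars1 to 0.0837 for Tmem131l, against a median of 1.04 over all genes ranked. Mars1, a methionyl-tRNA synthetase gene, was at 300, 316, 86.6 and 110 normalized reads in A to D. With 4 libraries in 2 pairs this measure mostly ranks the size of the difference between the pairs.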

How the data were processed

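Ribosome footprints of 26 to 34 nucleotides from about 1000 cells per sample were sequenced, per the labels' protocols. The submitters' processing notes name Trimmomatic 0.39, STAR 2.7.5c, StringTie 2.1.7, DESeq2, edgeR and the build mm10; what each did, the annotation and how reads were counted is not stated. No matched RNA sequencing was used, so translation and transcript level cannot be told apart.

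The table has 22397 rows; 1 without a gene name (0.00475% of the summed means) was left out. Per the file headers, the mean is a signal that the authors averaged over samples once scaled by size factors. The deposited fold change and its standard error are on the log2 scale, and shrinkage is not mentioned. A p-value taken from their ratio came within 1% of the deposited one for only 1.74% of the tested rows. The fold changes may therefore be shrunken, and those of genes with few reads are not to be read as plain estimates. The p-value and adjusted p-value per gene are those the authors deposited.

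Of 20514 genes with reads, 20511 had means that gave 1 whole-number solution of reads in 4 libraries (99.985%, relative tolerance 8e-15); of 500 means moved by a relative 1e-09, 0 did. On simulated data 100% of 19989 genes were recovered. Genes with a single read showed by their deposited fold change which libraries form a pair. Median-of-ratios size factors, recomputed from these reads, came within 0.0229% of those deposited in the means.

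The table used here has 1 comparison and no counts per sample, so a count test was not run and the authors' comparison is the main result. Alternatives used limma 3.58.1 (voom) on the recovered reads of genes with at least 10 reads, in R 4.3.3. On simulated counts of 13916 genes with an assumed dispersion of 0.05, it recovered 96.5% of 200 genes changed by 2 log2 units, with 8 false calls. The changed genes were drawn only from well-read genes, with as many rises as falls. The simulation therefore does not cover genes with few reads, or data in which most genes are called. An exact two-sided permutation test of 2 samples against 2 cannot go below p = 0.333 and was not used. The members and lists were chosen with earlier results of these data known. Named were the members and other enzymes, up to 5 genes per further list with the smallest p among those that passed (the 2 of highest mean where none did), the 5 genes of most like profile, Ddx20 and Thy1. Srebf1, Srebf2, Scap, Insig1, Fasn and Ctsb were named after their values were seen. Some genes the rule names are not reported here.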

Additional observations from a re-analysis of the deposited data

How the results depend on the processing

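Over 12 alternatives with limma on the recovered reads, Hmgcs1, Fdft1, Sqle, Cyp51 and Dhcr7 kept their direction and passed in all 12, and Lss in 11. Lss missed with library totals (-0.63, adjusted p = 0.0513). The number of members that fell was 6 in each except 5 with library totals, and 6 without any 1 library; 0 rose. Of the further enzymes that fell (6 in the deposited comparison), limma called 8 with the deposited size factors, 9 with TMM factors and 6 to 9 over all alternatives. Of those that rose (1 in the deposited comparison), limma called 2 with the deposited size factors, library totals or upper-quartile factors. It also called 2 with a filter of 1 read or without the 50 most abundant genes. With at least 50 reads it called 0, but that filter leaves out Tm7sf2 and Ebp, which had 13 and 19 reads in all. Leaving out libraries, Idi1 ranged from -0.0402 to 1.15 over 3 fits, Fdps was fitted once (0.73, without C), Mvk ranged from -0.52 to 0.96 (passed as higher without C, adjusted p = 0.0346) and Pmvk from -0.71 to 0.53. Pmvk also turned with library totals (0.49) and with A and B summed (0.0101), and with library totals Hsd3b1 (0.0674) and Hsd17b3 (0.24) turned. None of the values that changed sign passed; the cause was not tested. Over all genes, calls numbered 4663 rises and 3257 falls in the deposited comparison, 5912 and 4168 with limma and the deposited size factors, 7270 and 2742 with library totals, 1547 and 4013 of 7765 genes with at least 50 reads, and 11261 and 4141 of 20511 with at least 1 read. No paired analysis was possible because libraries recovered from means carry no replicate number. With 2 to 7 reads per library where they had any, Idi1 and Fdps are limited by depth.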

Other observations

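Genes that turn cholesterol into steroid hormones, the trade of Leydig cells, were read at low depth. Of 10 tested steroid hormone synthesis genes 1 fell and 1 rose by the authors' deposited table, where their median log2 change and that of all tested genes were both 0.38. Of all tested genes 18.8% fell and 26.9% rose there. With limma on the recovered reads 5 of the 10 rose and 1 fell, and 1 to 6 rose over the alternatives. Over all genes fitted with limma 40.9% rose and 28.8% fell. Por, whose product hands electrons to CYP51, squalene epoxidase and the steroid cytochromes alike, fell by 1.15 on the log2 scale in the authors' deposited table, with 130, 144, 69.3 and 49.1 normalized reads in libraries A to D. Tspo, a protein of the outer mitochondrial membrane, rose by 1.70 in the authors' deposited table, with 6.98, 9.90, 22.7 and 40.6 normalized reads. Of 8 Leydig cell markers 0 passed in either direction in the authors' deposited table, while with limma 3 of the 6 that could be fitted rose. Hsd3b1 (-0.39) and Hsd17b3 (-0.28) had the highest means of these in the authors' deposited table. The summed level of the 8 markers was 80.8 and 82.3 CPM in A and B and 177 and 190 in C and D.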
